A study of Oryza sativa with 8 samples.

Results

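A pair of rice lines built around 1 gene were set against each other, OsglHAT1-OE and GW6a-4.6, by RNA sequencing of the shoot apical meristem. The comparison took the 3 libraries labelled OsglHAT1-OE and the 3 labelled GW6a-4.6, which is 6 of the 8 libraries of the series. By the labels, OsglHAT1-OE is a transgenic line made in the cultivar Nipponbare, and the promoter and the number of transformation events were not given in the sources used here. GW6a-4.6 is labelled a chromosome segment substitution line, in which a piece of the Kasalath genome replaces its counterpart in Nipponbare. Both lines therefore share the Nipponbare background, and the other 2 libraries are unmodified Nipponbare. They are given only as a level and entered no test below, except 1 alternative fit that took all 8 libraries. No growth stage, sampling time or batch was given, and nothing says whether replicates were separate plants, so p-values measure only the spread between these libraries.

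GW6a and OsglHAT1 are names for a single gene whose product acetylates histone H4. Acetyl groups on histone tails loosen the packing of DNA and are commonly found at genes that are being read. The shoot apical meristem is the dome of dividing cells from which leaves, stem and panicle are made, and its dividing cells are rich in transcripts for histones, ribosomes and the mitotic skeleton. Rice tissues under attack by microbes, by contrast, switch on chitinases, pathogenesis-related proteins, WRKY transcription factors and antimicrobial diterpenoids called phytoalexins.

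Each value below is the deposited signal of a transcript model, which is read alignments scaled by the reads of the library, divided by a median-ratio factor so that libraries are comparable. It is not corrected for transcript length, so levels are compared between libraries and not between genes. A read that aligned to several models could count more than once, and read numbers given for a locus are such alignments. The library totals, recovered from the step between neighbouring values, were 6813185, 7667853 and 6783985 reads for OsglHAT1-OE and 5602109, 5231450 and 5521707 for GW6a-4.6. Of 36819 loci, 30901 reached a value of 1 in at least 2 of the 6 libraries and were tested. Loci under 1 in every library of 1 line were tested only where the other line reached 1, so the filter fixes their direction. A locus was called when its adjusted p from limma was under 0.05, and log2 differences are OsglHAT1-OE minus GW6a-4.6 on log2 of the value plus 1, which understates the change of low loci. Replicate 3 of OsglHAT1-OE stood apart in its alignments per read, 2.41, where the remaining libraries had 2.66 to 2.69.

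The GW6a/OsglHAT1 transcript itself, Os06t0650300-00 on chromosome 6, checks the labels. Its values were 13.1, 8.79 and 11.6 in the libraries labelled OsglHAT1-OE, from 226 reads in all, against 2490, 2445 and 2746 in those labelled GW6a-4.6. The libraries labelled for overexpression thus held far less of it, with no overlap, and both Nipponbare libraries held still less, at 1.46 and 2.28. The group means were 11.2 ± 2.19 and 2560 ± 162 (SD, n = 3 each), so the line labelled OsglHAT1-OE was 229-fold lower (log2 difference -7.73, SE 0.09, adjusted p = 7.44e-36 by limma). A two-sided exact permutation test over the libraries gave p = 0.1, the smallest that 3 against 3 allows. Set against GW6a-4.6, the gene goes against the overexpression label. Set against Nipponbare, in which the transgenic line was made, its values were higher in OsglHAT1-OE, with no test. Group names below are therefore labels only, and directions are not read as effects of more or less of this gene.

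Between the lines 11667 of the 30901 loci were called, or 37.8%, with 5711 higher in the libraries labelled OsglHAT1-OE (18.5%) and 5956 lower (19.3%). The 3 libraries of each line did not overlap at 14622 loci, or 47.3%, so a lack of overlap at a named locus is common. Most differences were small, with a median absolute log2 difference of 0.27 over all loci. The large ones ran mostly one way. A log2 difference of at least 1 was reached by 366 called loci that were higher in OsglHAT1-OE (1.18%) and by 1856 that were lower (6.01%). At a log2 difference of at least 2 the counts were 39 higher and 376 lower. Without the median-ratio factors the median log2 difference of all loci shifted to -0.13 and the calls split into 2366 higher and 7555 lower, so the near balance of calls depends on the scaling. The excess of large falls was there under each of the 3 scalings tried, with 245 higher and 2230 lower without factors and 555 higher and 1488 lower after quantile normalization. In whole tissue, fewer cells of a type and less RNA per cell cannot be told apart.

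**Figure D1:**
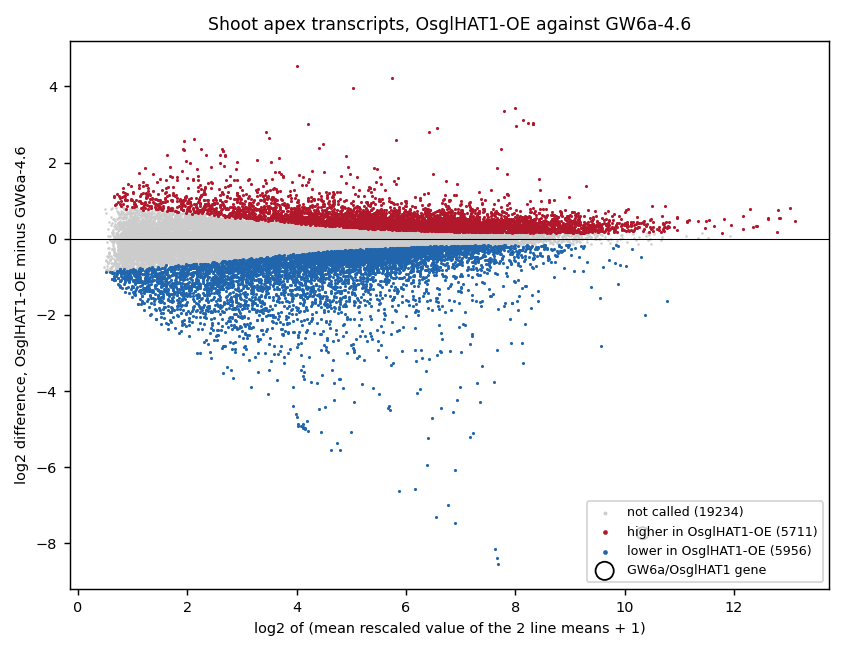
Log2 difference (OsglHAT1-OE minus GW6a-4.6) of each of the 30901 tested loci against log2 of the mean rescaled value plus 1. Red points are the 5711 loci called higher in OsglHAT1-OE, blue points the 5956 called lower and grey points the rest, and the circle far below zero is the GW6a/OsglHAT1 gene at -7.73.

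Families were formed from the annotation text or from lists of loci, and the count of each is to be read against the 18.5% and 19.3% of all loci. In the chart of families, core histones and ribosomal proteins had the largest shares called higher. Class III chitinases had the largest share called lower, followed by WRKY factors. Members called higher outnumbered those called lower in 23 families, the reverse held in 25, and 3 were even.

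**Figure D2:**
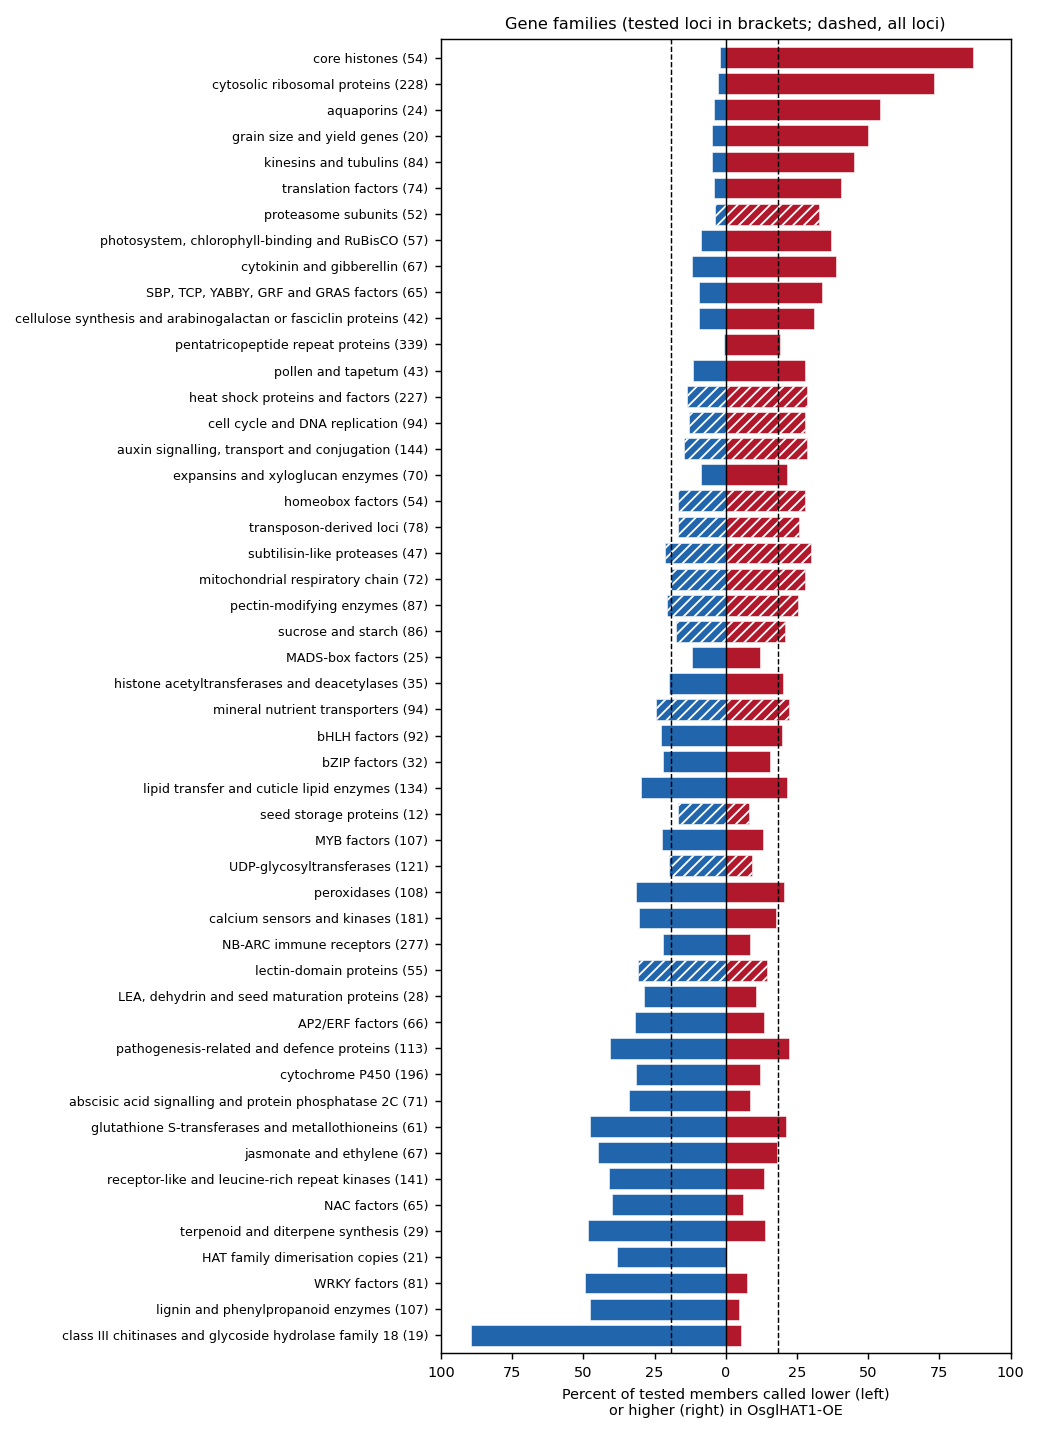
Percent of the tested members of each family with at least 10 tested loci called lower (left, blue) or higher (right, red) in OsglHAT1-OE, with the number tested in brackets and dashed lines at 19.3% and 18.5%, the shares of all loci. Hatched families changed sides under at least 1 alternative scaling, test or left-out library. Core histones stand at 87% higher and class III chitinases at 89.5% lower.

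Core histones, the proteins around which DNA is wound and which a cell must make anew each time it copies its DNA, were higher in OsglHAT1-OE almost throughout. Of 54 tested loci 47 were called higher and 1 lower, with a median log2 difference of 0.61 against 0.00 over all loci. Their summed values were 16165, 15416 and 15799 in OsglHAT1-OE, above the 11735, 9845 and 10450 in GW6a-4.6. Both lines were above Nipponbare, at 4521 and 4292. One histone H3 locus, Os05t0438700-01, had values of 624, 572 and 608 in OsglHAT1-OE, against 378, 327 and 363 in GW6a-4.6. Its 3 OsglHAT1-OE libraries lay above all 3 of GW6a-4.6, and the ratio of means was 1.69 (log2 difference 0.76, SE 0.06, adjusted p = 1.41e-11 by limma). The H2B locus Os08t0490900-00 stood at 578, 551 and 550 in OsglHAT1-OE, against 384, 344 and 329 in GW6a-4.6 (adjusted p = 2.34e-10). Histone copies are near-identical, so reads may be shared among them and the loci do not count as independent measurements. The single fall was in the centromeric histone H3 (Os05t0489800-01), the variant that marks where spindle fibres attach. It had 21.4, 18.1 and 20.9 in OsglHAT1-OE, against 35.3, 29.1 and 28 in GW6a-4.6, with no overlap (log2 difference -0.58, SE 0.13, adjusted p = 0.000647). Without replicate 3 of OsglHAT1-OE the family's counts were 46 higher and 1 lower.

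Enzymes that add or remove acetyl groups were called evenly, with 7 of 35 tested loci higher and 7 lower, the GW6a gene included. The even split did not hold throughout, with 3 higher and 10 lower without rescaling, and 3 higher and 7 lower after quantile normalization, without replicate 2 of OsglHAT1-OE and without replicate 3 of GW6a-4.6. The histone deacetylase-like locus Os02t0215200-02, of a class that takes acetyl groups off histones, held 9.91, 9.30 and 8.52 in OsglHAT1-OE, against 40.4, 48.3 and 52.9 in GW6a-4.6. The lines did not overlap, and OsglHAT1-OE was 5.11-fold lower (log2 difference -2.23, adjusted p = 1.01e-14 by limma). A relative of the GW6a gene with the same acetyltransferase domain, Os02t0180400-00, was lower too, at 1.02, 1.03 and 1.53 in OsglHAT1-OE against 14.6, 16 and 18.9 in GW6a-4.6. Among the rises, the N-acetyltransferase-like Os03t0151600-02 had 68.6, 55.1 and 58.4 in OsglHAT1-OE and 42.9, 36.7 and 43.7 in GW6a-4.6 (adjusted p = 6.48e-05).

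Of 94 cell cycle and DNA replication loci 26 were called higher and 12 lower, and the balance turned to 5 higher and 17 lower without rescaling. Only 6 were lower without replicate 1 of OsglHAT1-OE, 7 without its replicate 3 and 6 without replicate 3 of GW6a-4.6. A cytosine methyltransferase (Os10t0104900-01), of the enzymes that put methyl marks on DNA, had 136, 129 and 133 in OsglHAT1-OE and 87.5, 102 and 97.3 in GW6a-4.6 (ratio 1.38, adjusted p = 1.06e-05 by limma). Cyclin B (Os02t0800500-01), which drives entry into mitosis, was lower at 158, 144 and 156 in OsglHAT1-OE against 192, 202 and 189 in GW6a-4.6 (adjusted p = 0.000145). Kinesins and tubulins, the motors and building blocks of the spindle and of the arrays that steer wall deposition, leaned higher, with 38 of 84 called higher and 4 lower. Beta-5 tubulin (Os01t0282800-02) reached 1246, 1203 and 1375 in OsglHAT1-OE, against 792, 785 and 760 in GW6a-4.6. That gap was wider than the spread within either line, at 1.64-fold (log2 difference 0.71, SE 0.06, adjusted p = 1.82e-11). Among the falls, the kinesin-related locus Os06t0206700-01 had 16.5, 20.8 and 17.9 in OsglHAT1-OE, against 34.8, 42.3 and 39.8 in GW6a-4.6. Without rescaling the family's counts were 17 higher and 7 lower.

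The protein-making machinery was higher in OsglHAT1-OE by small steps. Of 228 cytosolic ribosomal protein loci 167 were called higher and 6 lower, with a median log2 difference of 0.28. Their sums were 119204, 118899 and 121112 in OsglHAT1-OE, against 102229, 93592 and 94996 in GW6a-4.6, with no overlap. Ribosomal protein L4 (Os07t0180900-01), a protein of the large subunit, had 1470, 1333 and 1455 in OsglHAT1-OE and 1038, 916 and 924 in GW6a-4.6 (ratio 1.48, log2 difference 0.57, adjusted p = 5.31e-09 by limma). The count depends on scaling, with 64 higher and 8 lower without rescaling and 88 higher and 7 lower after quantile normalization. Translation factors gave 30 of 74 higher and 3 lower, and 11 higher and 8 lower without rescaling or 18 higher and 7 lower after quantile normalization. The 2 with the smallest adjusted p act in the chloroplast: elongation factor Tu (Os02t0595700-01) had 220, 218 and 253 in OsglHAT1-OE and 152, 149 and 138 in GW6a-4.6, and the elongation factor Ts polyprotein (Os12t0541500-02) had 138, 149 and 169 against 92.7, 98.3 and 85.5. Pentatricopeptide repeat proteins, which edit and process organelle RNA, gave 64 of 339 higher and 2 lower, so their share of rises, 18.9%, was close to the 18.5% of all loci and their share of falls, 0.59%, was under the 19.3% of all loci. Only 39 of them were called higher without replicate 3 of OsglHAT1-OE, 15 without rescaling and 106 after quantile normalization. Proteasome subunits gave 17 of 52 higher and 2 lower, which became none higher and 4 lower without rescaling, 7 higher and 6 lower after quantile normalization, and 10 higher and 2 lower without replicate 3 of OsglHAT1-OE. Mitochondrial respiratory chain loci gave 20 of 72 higher and 14 lower, which became 5 higher and 17 lower without rescaling and 12 higher and 11 lower after quantile normalization, and 15 higher and 7 lower without replicate 3 of GW6a-4.6.

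A few loci that resemble organelle genes varied between the GW6a-4.6 libraries themselves. The photosystem II D1-like locus Os04t0473150-00 had 6.70, 11.4 and 11.9 in OsglHAT1-OE, against 57.9, 6.90 and 109 in GW6a-4.6, so replicate 2 of GW6a-4.6 lay within the OsglHAT1-OE range. The cytochrome c oxidase subunit 2 locus Os04t0343050-00 showed the same order, at 1.17, 1.03 and 0.511 in OsglHAT1-OE against 8.41, 1.09 and 15.4 in GW6a-4.6. Both were called lower, the D1-like locus not without replicate 3 of GW6a-4.6, and the amount of organelle RNA carried into each library was not tested.

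Expansins, which loosen walls so that cells can enlarge, and xyloglucan enzymes formed a family in which 15 of 70 loci were higher and 6 lower, though the counts were even, 10 and 10, without rescaling and were 26 higher and 7 lower after quantile normalization. OsEXPA4 (Os05t0477600-01) had 243, 224 and 228 in OsglHAT1-OE, against 125, 107 and 113 in GW6a-4.6 and 15.8 and 19.6 in Nipponbare. Its OsglHAT1-OE mean was 2.01-fold the GW6a-4.6 mean, with no overlap (log2 difference 1, SE 0.07, adjusted p = 2.6e-13 by limma). OsEXPA5 (Os02t0744200-01) followed at 117, 100 and 109 in OsglHAT1-OE against 55.0, 59.0 and 60.3 in GW6a-4.6 (adjusted p = 2.25e-10). Among the falls, the fucosyltransferase Os02t0275200-01, which decorates xyloglucan, had 8.45, 5.43 and 4.26 in OsglHAT1-OE and 34.0, 27.1 and 24.4 in GW6a-4.6. Cellulose synthesis and arabinogalactan or fasciclin loci gave 13 of 42 higher and 4 lower, and 5 in each direction without rescaling. One cellulose synthase (Os09t0422500-01) had 266, 229 and 249 in OsglHAT1-OE against 159, 141 and 161 in GW6a-4.6, while cellulose synthase-8 (Os07t0252400-01) was lower at 259, 263 and 275 against 282, 358 and 325. Pectin-modifying enzymes gave 22 of 87 higher and 18 lower, which became 14 higher and 23 lower without rescaling. A pectinesterase, Os01t0788400-01, of the enzymes that strip methyl groups from pectin, held 16.3, 11.5 and 12.1 in OsglHAT1-OE against 135, 132 and 121 in GW6a-4.6. It was 9.73-fold lower, and Nipponbare stood with OsglHAT1-OE at 9.48 and 11.4.

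Lignin and phenylpropanoid enzymes, which stiffen walls of mature tissue and also wall off microbes, were lower in OsglHAT1-OE, with 51 of 107 called lower and 5 higher and a median log2 difference of -0.35. Cinnamoyl-CoA reductase makes the aldehydes from which lignin units are built, and the locus Os02t0811800-01 had 2.62, 2.33 and 2.56 in OsglHAT1-OE, against 241, 234 and 231 in GW6a-4.6. The lines stood 94.0-fold apart, and Nipponbare resembled OsglHAT1-OE at 1.75 and 0.76 (log2 difference -6.08, SE 0.12, adjusted p = 1.18e-28 by limma). Cinnamyl alcohol dehydrogenase (Os04t0612700-01), the next step of the pathway, had 10.2, 8.79 and 5.28 in OsglHAT1-OE against 196, 190 and 186 in GW6a-4.6 (23.5-fold lower, adjusted p = 1.23e-23). Peroxidases, which couple lignin units in the wall, gave 34 of 108 lower and 22 higher. The peroxidase Os07t0677200-01 was 14.4-fold lower, at 19.2, 22.5 and 19.1 in OsglHAT1-OE and 304, 290 and 280 in GW6a-4.6. Another, Os04t0689000-01, was 2.04-fold higher, at 563, 506 and 503 in OsglHAT1-OE and 272, 246 and 254 in GW6a-4.6. Lignin enzymes also mark vascular and lignified tissue, whose share in the dissected apices was not tested.

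Auxin, cytokinin and gibberellin steer growth at the apex. Auxin loci gave 41 of 144 higher and 21 lower, although 23 were higher and 25 lower without rescaling. The GH3.5 amido synthetase (Os05t0500900-01), which inactivates auxin by joining it to amino acids, had 85.7, 83.5 and 84.3 in OsglHAT1-OE, against 46.1, 37.4 and 42.7 in GW6a-4.6 and 5.11 and 5.70 in Nipponbare. The lines did not overlap (2.01-fold, log2 difference 0.99, SE 0.09, adjusted p = 1.75e-10 by limma). Auxin response factor 18 (Os01t0236300-01) went the other way, at 139, 142 and 118 in OsglHAT1-OE and 214, 241 and 247 in GW6a-4.6 (adjusted p = 1.67e-10). Cytokinin and gibberellin loci gave 26 of 67 higher and 8 lower, and 13 higher and 11 lower without rescaling. The response regulator-like locus Os09t0532400-01 had 624, 648 and 695 in OsglHAT1-OE, against 409, 453 and 423 in GW6a-4.6 and 111 and 119 in Nipponbare. Whether this locus acts in cytokinin signalling was not tested. An A-type response regulator (Os12t0139400-01), a damper of cytokinin signals, had 50.7, 58.2 and 43.4 against 28.6, 25.6 and 22.7 (adjusted p = 7.61e-08). The falls of that family included kaurene synthase-like and kaurene oxidase-like loci that in rice also serve the making of phytoalexins, taken up with the diterpenoids.

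Jasmonate and ethylene carry wound and defence signals, and 30 of 67 of their loci were lower in OsglHAT1-OE and 12 higher. A jasmonate-induced protein (Os12t0198700-01) had 4.37, 4.26 and 3.92 in OsglHAT1-OE, against 75.3, 76.5 and 81.3 in GW6a-4.6. The 6 values fell into 2 tight sets 18.6-fold apart (log2 difference -3.92, SE 0.14, adjusted p = 1.51e-21 by limma). Lipoxygenases, some of which start jasmonate synthesis by oxidising linolenic acid, moved both ways. Which of the loci named here serve that synthesis was not tested. Lipoxygenase Os08t0509100-01, annotated to the chloroplast, had 9.76, 11.6 and 11.6 in OsglHAT1-OE and 54.7, 47.8 and 48.1 in GW6a-4.6. Lipoxygenase L-2 (Os03t0738600-01) had 164, 157 and 147 in OsglHAT1-OE and 55.3, 53.4 and 53.4 in GW6a-4.6, a ratio of 2.89 (adjusted p = 5e-17).

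Class III chitinases, which cut the chitin of fungal walls, were grouped with other members of glycoside hydrolase family 18. Together they had the largest median difference among the families, -2.84, with 17 of 19 lower and 1 higher. Their sums were 204, 214 and 205 in OsglHAT1-OE, against 1869, 1641 and 1645 in GW6a-4.6 and 421 and 399 in Nipponbare. Chitinase III (Os11t0701400-01) had 0.291, 0.517 and 0.681 in OsglHAT1-OE, from 10 reads in all, against 157, 135 and 131 in GW6a-4.6. OsglHAT1-OE was close to the detection limit there and 284-fold lower (log2 difference -6.57, SE 0.17, adjusted p = 9e-26 by limma). All 3 OsglHAT1-OE values were under 1, so the locus passed the filter through GW6a-4.6 alone. OsChib3H-b (Os11t0700900-02) had 24.1, 23.8 and 29.6 in OsglHAT1-OE and 395, 357 and 341 in GW6a-4.6, with Nipponbare at 22.3 and 21.3. On another chromosome, Os05t0247800-01 had 28.6, 28.7 and 31 in OsglHAT1-OE and 313, 300.3 and 303 in GW6a-4.6 (10.4-fold lower, adjusted p = 4.33e-27). The counts of this family were 16 or 17 lower under each left-out library and each scaling.

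Pathogenesis-related and other defence proteins were lower in 46 of 113 loci and higher in 25. PR-1-like Os10t0191300-01, of the secreted proteins that mark a defence response, had 68.2, 53.5 and 65.2 in OsglHAT1-OE, against 464, 384 and 414 in GW6a-4.6 and 144 and 127 in Nipponbare. It was 6.75-fold lower, and Nipponbare lay between the lines (log2 difference -2.74, SE 0.08, adjusted p = 7.23e-24 by limma). The beta-1,3-glucanase Os01t0947000-01, which digests callose and fungal glucans, had 14.0, 16.4 and 15.2 in OsglHAT1-OE and 138, 149 and 132 in GW6a-4.6 (9.19-fold lower, adjusted p = 5.28e-23). The thionin-like peptide Os07t0429700-01, of a class of small toxic peptides, was higher. It had 497, 498 and 490 in OsglHAT1-OE and 211, 195 and 200.4 in GW6a-4.6 (2.45-fold higher, adjusted p = 4.68e-18). The Bet v I family protein Os08t0374000-01 was higher as well, at 183, 168 and 183 in OsglHAT1-OE and 73.3, 57.8 and 64.2 in GW6a-4.6. A germin-like protein annotated to disease resistance (Os08t0231400-01) was among the 5 loci of highest mean value with an absolute log2 difference of at least 1, a choice made on values not corrected for length. It had 193, 185 and 185 in OsglHAT1-OE, against 1355, 1331 and 1306 in GW6a-4.6 and 44.9 in each Nipponbare library.

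WRKY factors, transcription factors that govern defence genes, were lower in 40 of 81 loci and higher in 6, with a median log2 difference of -0.43. WRKY45 (Os05t0322900-01), a regulator of salicylic acid dependent resistance in rice, had 46.5, 49.0 and 34.8 in OsglHAT1-OE, against 269, 236 and 240.2 in GW6a-4.6 and 116 and 117 in Nipponbare. The lines lay on opposite sides of Nipponbare, 5.73-fold apart (log2 difference -2.5, SE 0.09, adjusted p = 4.48e-21 by limma). WRKY62 (Os09t0417800-01) had 2.04, 1.81 and 1.02 in OsglHAT1-OE and 54.8, 42.1 and 46.1 in GW6a-4.6, a 29.4-fold fall. Its neighbour WRKY76 (Os09t0417600-02) had 2.77, 2.58 and 3.75 in OsglHAT1-OE and 55.2, 49.0 and 46.6 in GW6a-4.6, a 16.6-fold fall. Both of these WRKY proteins are known in rice as restrainers of defence. Among the 6 rises, WRKY10 (Os04t0471700-00) had 29.4, 22.8 and 23.0 in OsglHAT1-OE and 15.5, 12.3 and 15.4 in GW6a-4.6.

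Receptor-like and leucine-rich repeat kinases, which perceive signals at the cell surface, gave 58 of 141 lower and 19 higher with a median log2 difference of -0.31. BAK1-like Os05t0414700-01, a co-receptor for brassinosteroid and for microbial signals, had 46.8, 49.5 and 53.0 in OsglHAT1-OE and 101, 120 and 110 in GW6a-4.6 (2.22-fold lower, adjusted p = 1.68e-12 by limma). Other kinases were higher in OsglHAT1-OE with small adjusted p, such as Os03t0773700-01 at 535, 553 and 604 against 318, 352 and 379. NB-ARC immune receptors, which detect microbial proteins inside cells, gave 61 of 277 lower and 24 higher, which became 44 lower and 40 higher after quantile normalization, with the median log2 difference turning to 0.06 there, against -0.08. The receptor Os12t0467300-01 had 51.9, 50.9 and 49.6 in OsglHAT1-OE and 134, 148 and 144 in GW6a-4.6, with Nipponbare at 138 and 153. Another, Os06t0693100-01, was 2.21-fold higher, at 35.6, 30.8 and 34.1 in OsglHAT1-OE and 14.8, 15.6 and 15.0 in GW6a-4.6. Calcium sensors and kinases gave 55 of 181 lower and 32 higher. The EF-hand protein Os09t0483500-01, with the calcium-binding motif of calmodulin, had 2.62, 2.84 and 1.70 in OsglHAT1-OE and 45.4, 37.6 and 35.5 in GW6a-4.6, 16.5-fold lower. Lectin-domain proteins, which bind sugars, gave 17 of 55 lower and 8 higher, which became 10 lower and 11 higher after quantile normalization. The agglutinin-like lectin Os04t0173800-01 was 6.41-fold higher, at 103, 104 and 80.2 in OsglHAT1-OE, against 16.5, 12.7 and 15.7 in GW6a-4.6 and 207 and 186 in Nipponbare. The mannose-binding lectin Os01t0958200-01 was 19.6-fold lower, at 2.33, 5.43 and 5.28 in OsglHAT1-OE and 82.1, 79.2 and 93.9 in GW6a-4.6.

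**Figure D3:**
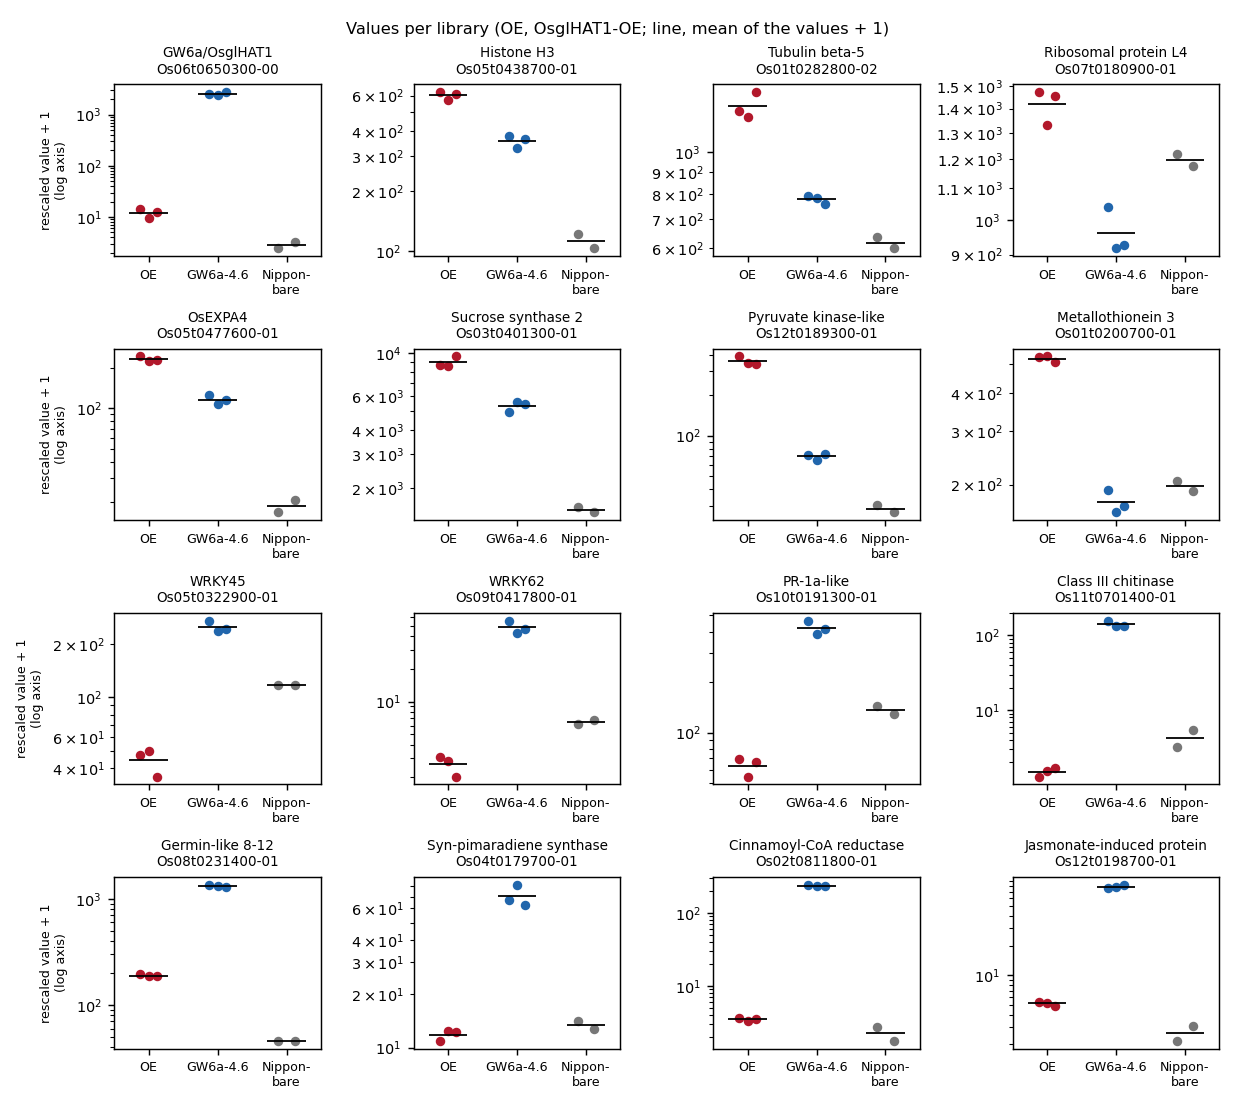
Rescaled value plus 1 of 16 transcripts in each library, on log axes that differ between panels, with OsglHAT1-OE (OE) in red, GW6a-4.6 in blue and Nipponbare in grey and a line at each group's mean of the values plus 1. In every panel the 3 OE points and the 3 GW6a-4.6 points do not overlap, which also holds at 47.3% of all tested loci. Histone H3, tubulin, ribosomal protein L4, OsEXPA4, sucrose synthase 2, the pyruvate kinase-like locus and metallothionein 3 are higher in OE, and the other 9 are lower.

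Terpenoid genes, which in rice include those for diterpenoid phytoalexins, gave 14 of 29 lower and 4 higher, with sums of 566, 576 and 552 in OsglHAT1-OE, against 1466, 1550 and 1470 in GW6a-4.6 and 521 and 519 in Nipponbare. Syn-copalyl diphosphate synthase (Os04t0178300-02) takes the first committed step towards the momilactones of rice. It had 46.9, 37.0 and 41.7 in OsglHAT1-OE and 241, 266 and 246 in GW6a-4.6 (6-fold lower, adjusted p = 8.17e-23 by limma). Syn-pimaradiene synthase (Os04t0179700-01), the next enzyme of that branch, had 9.91, 11.4 and 11.2 in OsglHAT1-OE and 65.9, 80.3 and 61.5 in GW6a-4.6, and was named after its values were seen. The kaurene synthase-like Os12t0491800-01 had 14.9, 10.6 and 13.6 in OsglHAT1-OE and 107, 112 and 102 in GW6a-4.6, 8.22-fold lower. Kaurene oxidase-like Os06t0569500-01 was 4.15-fold lower, at 29.0, 28.6 and 27.9 in OsglHAT1-OE and 127, 114 and 113 in GW6a-4.6. A separate kaurene synthase A-like locus, Os02t0278700-01, was 2.19-fold higher, at 52.9, 44.6 and 42.1 in OsglHAT1-OE and 19.2, 27.8 and 16.9 in GW6a-4.6.

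Cytochrome P450 enzymes, which oxidise hormones, phytoalexins and foreign compounds, gave 62 of 196 lower and 24 higher. A CYP78A1-like locus, Os08t0547300-01, of a subfamily tied to organ and seed size in plants, had 163, 164 and 154 in OsglHAT1-OE, against 68.8, 69.8 and 77.2 in GW6a-4.6 and 7.59 and 4.37 in Nipponbare. The lines did not overlap (2.23-fold, log2 difference 1.15, SE 0.08, adjusted p = 4.31e-14 by limma). Glutathione S-transferases and metallothioneins, which handle toxic compounds and metals, gave 29 of 61 lower and 13 higher, and the 2 kinds were mixed in both directions. Metallothionein type 3 (Os01t0200700-01) had 527, 529 and 505 in OsglHAT1-OE and 191, 161 and 170 in GW6a-4.6 (2.99-fold higher, adjusted p = 1.35e-19). Metallothionein 3B (Os05t0202800-00) had 23.3, 26.8 and 23.9 in OsglHAT1-OE and 207, 188 and 193 in GW6a-4.6 (7.95-fold lower, adjusted p = 5.97e-24), with Nipponbare at 211 and 221. UDP-glycosyltransferases gave 24 of 121 lower and 11 higher, which became 18 lower and 25 higher after quantile normalization.

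Stress proteins were divided. Loci for abscisic acid signalling and protein phosphatase 2C, the drought hormone and the brakes on its pathway, gave 24 of 71 lower and 6 higher. Abscisic acid 8'-hydroxylase (Os02t0703600-01), which breaks the hormone down, had 14.4, 17.3 and 11.1 in OsglHAT1-OE and 45.2, 49.6 and 43.2 in GW6a-4.6 (3.22-fold lower, adjusted p = 1.71e-11 by limma). LEA, dehydrin and seed maturation proteins, which shield cells during drying, gave 8 of 28 lower and 3 higher. The LEA protein Os01t0314800-01 had 7.58, 10.1 and 9.20 in OsglHAT1-OE, against 50.8, 44.0 and 45.8 in GW6a-4.6 and 429 and 388 in Nipponbare. Heat shock proteins and factors gave 65 of 227 higher and 31 lower, which became 26 higher and 44 lower without rescaling. The heat shock cognate 70 locus Os03t0821100-01 had 666, 661 and 754 in OsglHAT1-OE and 414, 461 and 432 in GW6a-4.6, with Nipponbare above both at 1022 and 970.1. The heat stress factor Spl7-like Os09t0456800-01 had 13.7, 14.9 and 15.2 in OsglHAT1-OE and 46.8, 32.1 and 40.3 in GW6a-4.6. SalT (Os01t0348900-01), a salt-induced protein, was another of those 5 loci of highest value. Its values were 525, 527 and 519.8 in OsglHAT1-OE, against 2187, 2084 and 2075 in GW6a-4.6 and 256 and 245 in Nipponbare (4.04-fold lower, adjusted p = 1.59e-24).

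Sucrose synthase 2 (Os03t0401300-01) splits sucrose to feed wall and starch synthesis in growing tissue. It had 8709, 8614 and 9608 in OsglHAT1-OE, against 4961, 5551 and 5448 in GW6a-4.6 and 1582 and 1491 in Nipponbare. Both lines were above Nipponbare, and OsglHAT1-OE was 1.69-fold above GW6a-4.6 (log2 difference 0.75, SE 0.07, adjusted p = 2.58e-11 by limma). An alpha-amylase, Os02t0765600-01, of the enzymes that break starch down, was lower. It had 20.7, 19.6 and 18.1 in OsglHAT1-OE, against 187, 163 and 153 in GW6a-4.6 and 2.33 and 1.90 in Nipponbare. The sucrose and starch family as a whole gave 18 of 86 higher and 15 lower, which became 6 higher and 19 lower without rescaling. Aquaporins, the water channels that let expanding cells fill, gave 13 of 24 higher and 1 lower. The aquaporin Os02t0666200-01 had 1164, 1093 and 1166 in OsglHAT1-OE and 780, 712 and 783 in GW6a-4.6 (ratio 1.5, adjusted p = 9.57e-10). Mineral nutrient transporters gave 21 of 94 higher and 23 lower, which became 27 higher and 17 lower after quantile normalization, 20 higher and 18 lower without replicate 2 of OsglHAT1-OE, and 23 higher and 20 lower without replicate 1 of GW6a-4.6. The potassium transporter Os08t0466200-01 had 51.3, 51.3 and 49.6 in OsglHAT1-OE and 17.5, 14.3 and 15.9 in GW6a-4.6, while the potassium transporter OsHAK1 (Os04t0401700-01) had 24.1, 21.8 and 24.7 against 82.4, 78.3 and 85.5. Lipid transfer and cuticle lipid enzymes gave 40 of 134 lower and 29 higher. The lipid transfer protein Os03t0251000-03 was 4.85-fold higher, at 46.6, 46.8 and 50.6 in OsglHAT1-OE, against 11.4, 8.72 and 9.56 in GW6a-4.6 and 2.33 and 1.90 in Nipponbare.

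Genes known to set grain size or plant form in rice were taken as a list of 23 loci, since GW6a is named for grain weight, and all 20 that were tested are accounted for. Of these, 10 were higher in OsglHAT1-OE, 1 was lower and 9 were not called, with a median log2 difference of 0.33. BG1 (Os03t0175800-01), which promotes grain size through auxin, had 35.9, 33.1 and 33.0 in OsglHAT1-OE, against 16.5, 13.4 and 14.3 in GW6a-4.6 and 7.30 and 8.36 in Nipponbare. Its rise was 2.30-fold with no overlap (log2 difference 1.16, SE 0.13, adjusted p = 1.98e-08 by limma). D61 (Os01t0718300-02), the brassinosteroid receptor, had 425, 395 and 451 in OsglHAT1-OE and 239, 260 and 290.2 in GW6a-4.6 (1.61-fold, adjusted p = 8.57e-10). GW5 (Os05t0187500-00), a calmodulin-binding protein that limits grain width, had 25.4, 27.0 and 18.4 in OsglHAT1-OE and 11.9, 9.08 and 13.0 in GW6a-4.6 (2.08-fold, adjusted p = 1.63e-05). The other 7 rises were OsGRF4 (log2 difference 0.41), GS5 (0.42), GIF1 (0.31), GL7 (0.32), OsSPL14 (0.34), GW8 (0.95) and DEP1 (0.41), named as members of the list. The fall was in D2 (Os01t0197100-00), a P450 of brassinosteroid synthesis, at 28.7, 23.6 and 22.7 in OsglHAT1-OE and 33.6, 30.5 and 35.9 in GW6a-4.6 (adjusted p = 0.01 by limma). It was not called without replicate 3 of either line. The members without a call were Gn1a, SD1, GW2, GS3, GL3.1, D11, FLO2, OsGSK2 and D1, with log2 differences of -0.11 to 0.67. Without rescaling 5 loci were higher and 1 lower.

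The meristem label was checked with regulators of the shoot apex, 7 of 9 of which were tested. OSH1 (Os03t0727000-01), a homeobox factor that keeps cells of the apex undifferentiated, had 112, 108 and 111 in OsglHAT1-OE, against 90.8, 104 and 83.5 in GW6a-4.6 and 33.3 and 29.6 in Nipponbare. It was detected in every library and called 1.19-fold higher in OsglHAT1-OE (adjusted p = 0.0151 by limma), but not without rescaling, without replicate 1 of OsglHAT1-OE or without replicate 3 of GW6a-4.6. FON1 (Os06t0717200-01), a receptor kinase that limits meristem size, was also higher, at 121, 106 and 98.6 in OsglHAT1-OE and 79.2, 74.7 and 67.3 in GW6a-4.6 (adjusted p = 4.67e-06). OSH15 (Os07t0129700-01), a relative of OSH1 active in the internodes, was lower, at 100.4, 102 and 93.4 in OsglHAT1-OE and 169, 142 and 166 in GW6a-4.6 (adjusted p = 1.15e-08). LOG (Os01t0588900-01), which makes active cytokinin at the meristem tip, was lower at 12.4, 14.2 and 11.9 in OsglHAT1-OE and 19.2, 19.1 and 18.3 in GW6a-4.6, and was not called after quantile normalization. APO2, MOC1 and TAW1 were not called.

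Markers of other tissues that an apex sample could hold were present in both lines. Photosystem, chlorophyll-binding and RuBisCO loci of green leaf gave 21 of 57 higher and 5 lower, with sums of 6213, 5945 and 5901 in OsglHAT1-OE and 5289, 4232 and 4762 in GW6a-4.6. Their counts were 9 higher and 7 lower without rescaling, 13 higher and 7 lower without replicate 2 of GW6a-4.6, and 19 to 24 higher and 2 or 3 lower without replicate 3 of OsglHAT1-OE, or without replicate 1 or 3 of GW6a-4.6. Pollen and tapetum loci gave 12 of 43 higher and 5 lower, with 3 lower without replicate 1 of OsglHAT1-OE, or without replicate 1 or 2 of GW6a-4.6. A pollen desiccation protein-like locus, Os11t0167800-01, led with 2256, 2142 and 2204 in OsglHAT1-OE and 1361, 1125 and 1175 in GW6a-4.6. Seed storage loci gave 1 of 12 higher and 2 lower, which became 3 higher and none lower after quantile normalization, and their sums overlapped at 185, 177 and 175 in OsglHAT1-OE and 184, 179 and 189 in GW6a-4.6. The part of leaf or flower tissue in the family differences above was not tested.

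SBP, TCP, YABBY, GRF and GRAS transcription factors, many of which pattern organs, gave 22 of 65 higher and 6 lower, and 14 higher and 9 lower without rescaling. SBP-domain protein 5 (Os06t0703500-02) had 154, 159 and 162 in OsglHAT1-OE and 104, 105 and 108 in GW6a-4.6 (ratio 1.5, adjusted p = 6.34e-08 by limma). NAC factors, many of which act in ageing and stress, gave 26 of 65 lower and 4 higher with a median log2 difference of -0.41. The NAC locus Os05t0426200-02 had 421, 423 and 451 in OsglHAT1-OE, against 707, 861 and 760.4 in GW6a-4.6 and 1022 and 1134 in Nipponbare (adjusted p = 1.96e-12). AP2/ERF factors gave 21 of 66 lower and 9 higher, MYB factors 24 of 107 lower and 14 higher (15 and 11 without replicate 3 of GW6a-4.6, 16 and 9 without replicate 2 of OsglHAT1-OE, 17 and 9 without its replicate 3), bHLH factors 21 of 92 lower and 18 higher and bZIP factors 7 of 32 lower and 5 higher. Of the bZIP factors 3 were higher without replicate 2 of OsglHAT1-OE, or without replicate 2 or 3 of GW6a-4.6. OsERF3 (Os03t0182800-01), an ethylene-responsive factor, had 30, 30.2 and 30 in OsglHAT1-OE and 126, 104 and 110 in GW6a-4.6 (3.76-fold lower, adjusted p = 1.52e-17). The bHLH locus Os03t0671800-01 was 3.57-fold higher, at 19.4, 24.9 and 28.1 in OsglHAT1-OE and 6.56, 7.08 and 6.66 in GW6a-4.6. Homeobox factors gave 15 of 54 higher and 9 lower, which turned to 2 higher and 10 lower without rescaling, 6 and 8 without replicate 1 of OsglHAT1-OE 7 and 8 without its replicate 2 and 9 and 8 without replicate 3 of GW6a-4.6. MADS-box factors, which specify floral organs, gave 3 of 25 in each direction, and 5 higher and 1 lower after quantile normalization.

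The loci with the largest rises came from many families. Ribonuclease T2 (Os09t0537700-02), which degrades RNA outside the cytosol, had 151, 176 and 172 in OsglHAT1-OE, against 22.5, 20.4 and 20.8 in GW6a-4.6. Its ratio was 7.83 (log2 difference 2.91, SE 0.09, adjusted p = 3.87e-23 by limma), and both lines were far below the 12640 and 12290 of Nipponbare. A pyruvate kinase-like locus, Os12t0189300-01, had 387, 346 and 342 in OsglHAT1-OE, against 70.5, 65.0 and 72.2 in GW6a-4.6 and 29.5 and 25.9 in Nipponbare. It was 5.18-fold higher with no overlap (adjusted p = 1.56e-23). The BURP-domain locus Os05t0217700-01, of a family of secreted wall proteins, had 34.2, 31.1 and 38.2 in OsglHAT1-OE and 5.89, 5.09 and 6.66 in GW6a-4.6. Another BURP-domain locus, Os06t0302000-01, rested on 115 reads in OsglHAT1-OE and 2 in GW6a-4.6, a ratio of 49.4 with an exact binomial 95% counting interval of 13.2 to 406. The thiazole synthase Os07t0529600-01, of vitamin B1 synthesis in the chloroplast, was the only one of the 5 loci of highest value that was higher, at 929, 874 and 925 in OsglHAT1-OE and 380.1, 322 and 335 in GW6a-4.6. RIR1a (Os10t0569400-01), which in rice is induced by contact with a bacterium, was the remaining one besides the GW6a gene, at 575, 592 and 542 in OsglHAT1-OE, against 1391, 1294 and 1223 in GW6a-4.6 and 1067 and 1016 in Nipponbare.

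The largest fall among annotated loci was larger than that of the GW6a gene itself. The subtilisin-like protease Os10t0451900-01, one of a class of secreted proteases, had 0, 0 and 0.341 in OsglHAT1-OE, against 434, 405 and 383 in GW6a-4.6 and 2.04 and 3.61 in Nipponbare. The locus rested on 2 reads in OsglHAT1-OE and 7052 in GW6a-4.6, and passed the filter through GW6a-4.6 alone. The ratio was 0.000279, with an exact binomial 95% counting interval of 2.903e-05 to 0.000867. Close by, the locus Os10t0452300-01, annotated to an eggshell protein family, had 3.21, 3.88 and 3.07 in OsglHAT1-OE and 183, 161 and 151 in GW6a-4.6, 48.7-fold lower. Other subtilisin-like proteases moved both ways, with 14 of 47 higher and 10 lower, or 6 higher and 11 lower without rescaling. Pyruvate decarboxylase (Os05t0469800-00), which feeds fermentation when oxygen is short, had 9.18, 5.82 and 8.01 in OsglHAT1-OE and 296, 283 and 293 in GW6a-4.6. The lines were 37.9-fold apart, and Nipponbare stood with OsglHAT1-OE at 13.0 and 16.5 (adjusted p = 1.35e-27 by limma).

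Transposon-derived loci gave 20 of 78 higher and 13 lower, which became 8 higher and 15 lower without rescaling, and 8 were lower without replicate 2 or 3 of OsglHAT1-OE. A separate set of 21 tested loci annotated as HAT family dimerisation proteins, after the hAT class of DNA transposons, contained 8 that were read almost only in GW6a-4.6. Os01t0722550-00 had 0, 0.129 and 0 in OsglHAT1-OE, against 47.1, 50.9 and 44.4 in GW6a-4.6 and 0 in both Nipponbare libraries. Its single read in OsglHAT1-OE gave a ratio of 0.000908, with an exact binomial 95% counting interval of 2.61e-05 to 0.00576. The other 7 such loci had group means of 0.0431 to 0.172 in OsglHAT1-OE and 30.4 to 33.4 in GW6a-4.6, and 0 in Nipponbare, with values so alike that the copies may share reads. The 8 loci passed the filter through GW6a-4.6 alone and lie on chromosomes 1, 5, 11 and 12. The remaining 13 of the set were not called. After quantile normalization 4 of the set were higher and 8 lower. A count of 0 allows up to 3 reads, which is a deposited value of 0.439 in 1 Nipponbare library and 0.576 in the other.

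Calls were spread over the genome rather than gathered on chromosome 6, where the GW6a gene lies. The share called ran from 35.3% on chromosome 9 to 40.8% on chromosome 10, and was 38% on chromosome 6. Within 30 tested loci on either side of the GW6a gene, 26 of 60 were called, 13 higher and 13 lower, and 5 had an absolute log2 difference of at least 1, as did 7.19% of all tested loci. None of these 60 reached 2. Which loci lie inside the substituted Kasalath segment was not given in the sources used here. How near the Nipponbare mean lay to each line was judged on log2 of the group mean plus 1. Among the 1856 loci lower by at least 1, the Nipponbare mean was nearer to OsglHAT1-OE than to GW6a-4.6 in 41.2%, close to the 41.6% of all tested loci. Among the 366 loci higher by at least 1 it was nearer in 29.2%. Among the 376 loci lower by at least 2 it was nearer in 53.7%, and among the 39 higher by at least 2 in 38.5%. Among the 101 loci lower by at least 3 it was nearer in 77, and among the 11 higher by at least 3 in 8.

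Large falls did gather in short runs of neighbouring genes. Of 611 windows of 50 tested loci in order of locus identifier, each held a median of 3 called loci with a log2 difference of at least 1. In 13 windows there were 12 or more, and those 13 held 181 falls and 3 rises. The clusters described next were picked after their values were seen. Each holds the tested loci between a first and a last locus set by hand whose annotation matched a pattern. Other loci may therefore lie between the members of a run. The clusters of cinnamoyl-CoA reductases on chromosome 2, of diterpenoid genes on chromosome 4 and of unannotated loci on chromosome 6 lie outside the 13 windows. Neighbouring copies may share reads.

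**Figure D4:**
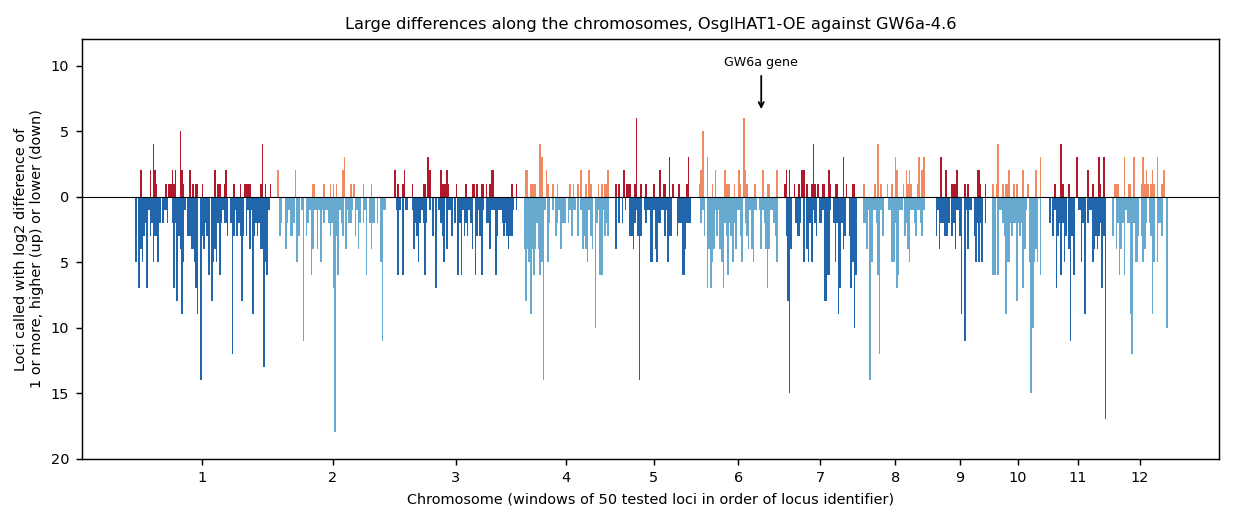
Number of loci per window of 50 tested loci called with a log2 difference of at least 1, higher in OsglHAT1-OE above the axis and lower below it, with windows in locus order along the 12 chromosomes. The deepest bars are 18 falls on chromosome 2 and 17 on chromosome 11, and the arrow marks the window of the GW6a gene, with 4 such loci.

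A run of 11 class III chitinase and family 18 genes on chromosome 11, from Os11g0700900 to Os11g0702200, was lower throughout. Group means ran from 0.183 to 25.8 in OsglHAT1-OE and from 5.99 to 364 in GW6a-4.6, and the log2 differences from -6.57 to -2.49. Each of the 11 was called. A run of 12 terpene synthase and P450 genes on chromosome 2, from Os02g0568700 to Os02g0572050, holds enzymes for phytocassane phytoalexins in rice. All 12 were lower, with log2 differences of -3.18 to -1.25 and Nipponbare means of 1.4 to 96.7. The kaurene synthase-like Os02t0570400-01 had 34.0, 34.2 and 39.0 in OsglHAT1-OE and 230, 272 and 247 in GW6a-4.6, and the P450 Os02t0570700-01 had 10.5, 6.20 and 12.4 against 83.1, 96.1 and 84.0. A smaller diterpenoid run on chromosome 4 was lower at all 5 of its annotated genes, with a median log2 difference of -1.67 and Nipponbare means of 10.7 to 78.3.

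On chromosome 7, 10 of 13 genes for PR-1 and allergen V5 proteins were lower and 3 were higher. PR-1 class Os07t0127700-01 had 0.583, 1.81 and 0.341 in OsglHAT1-OE and 69.8, 54.9 and 57.9 in GW6a-4.6, 66.8-fold lower (adjusted p = 3.29e-19 by limma). PR1a-like Os07t0129200-01 had 31, 28.9 and 29.0 in OsglHAT1-OE, against 186.5, 158 and 162 in GW6a-4.6 and 74.4 and 68.2 in Nipponbare. The 3 that were higher had log2 differences of 0.99 to 1.02 and means of 146 to 149 in OsglHAT1-OE, and with such nearly equal values they may be copies that share reads. Among the falls, Os07t0125000-02, Os07t0125600-02 and Os07t0126401-02 had GW6a-4.6 means of 12.77, 12.09 and 12.25. Those of Os07t0125201-00, Os07t0126100-00 and Os07t0126500-00 were 57.35, 56.18 and 56.12. These falls may be copies that share reads too, so the 10 falls and 3 rises do not count as independent. On chromosome 10, 9 of 12 glutathione transferase genes were lower and 3 were not called. Group means ran from 0.359 to 14.9 in OsglHAT1-OE, from 2.63 to 76.9 in GW6a-4.6 and from 2.85 to 246 in Nipponbare, so Nipponbare did not stand with OsglHAT1-OE here. Tau class GST protein 4 (Os10t0528300-01) had 1.60, 1.68 and 1.70 in OsglHAT1-OE and 30.4, 30.3 and 33.0 in GW6a-4.6, 18.8-fold lower, with a Nipponbare mean of 21.4.

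On chromosome 8, 8 loci from Os08g0136300 to Os08g0136800, 3 of them with a DUF26 domain found in secreted and receptor proteins, were nearly silent in OsglHAT1-OE. Their means were 0.105 to 0.752 there, against 15.7 to 391 in GW6a-4.6 and 0.146 to 1.52 in Nipponbare. At such low OsglHAT1-OE values the filter was passed mainly through GW6a-4.6. The DUF26 locus Os08t0136700-01 had 0.2915, 0.2585 and 0 in OsglHAT1-OE and 197, 180 and 180 in GW6a-4.6, from 4 and 3215 reads. The cinnamoyl-CoA reductase cluster of chromosome 2 held 5 loci from Os02g0808800 to Os02g0812000, all lower. Of these, Os02t0812000-01 was annotated only to an NAD(P)-binding domain. Means were 0.105 to 2.5 in OsglHAT1-OE, against 3.58 to 235 in GW6a-4.6 and 0.073 to 1.26 in Nipponbare. In both clusters Nipponbare stood with OsglHAT1-OE.

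**Figure D5:**
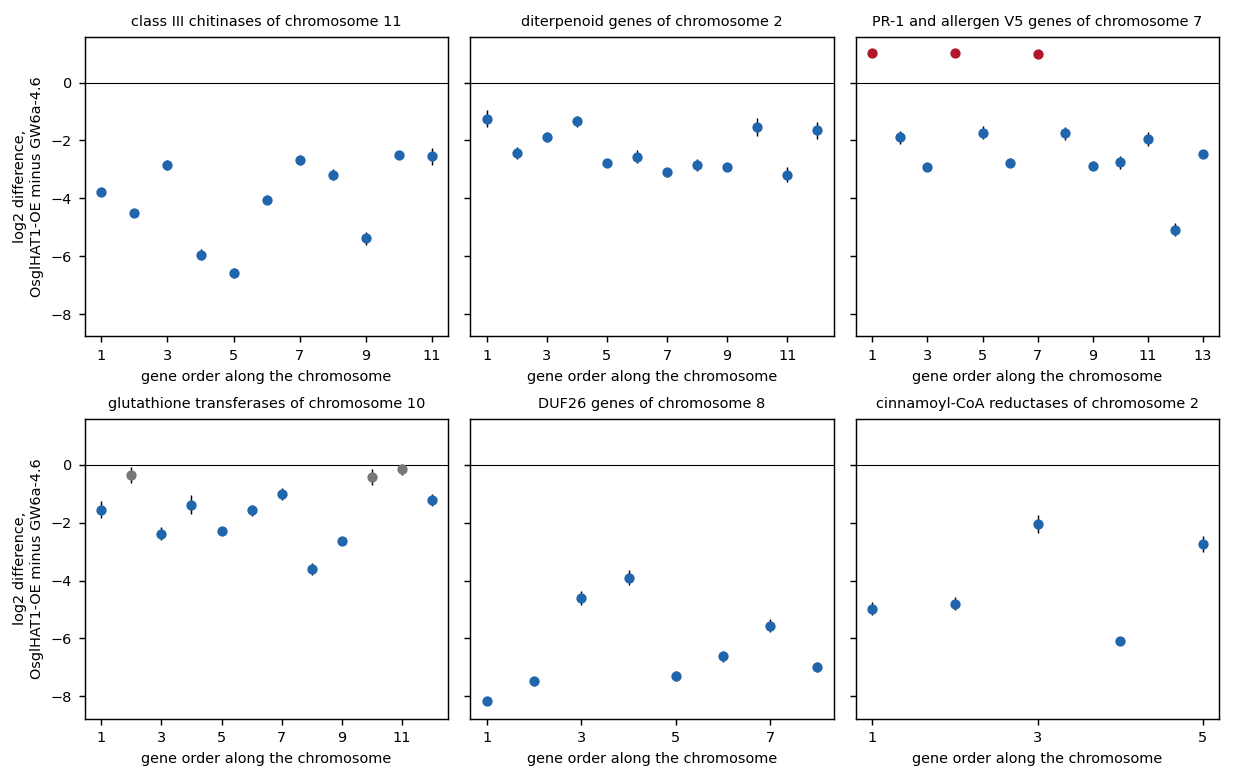
Log2 difference (OsglHAT1-OE minus GW6a-4.6) of the genes of 6 clusters in chromosome order, with bars for the standard error of the limma fit, blue for genes called lower, red for called higher and grey for not called. All genes of the chitinase, diterpenoid, DUF26 and cinnamoyl-CoA reductase clusters lie below zero, while 3 PR-1 or allergen V5 genes lie near 1.

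One run went the other way. On chromosome 6, 6 unannotated loci from Os06g0513050 to Os06g0514800 were higher in OsglHAT1-OE, with log2 differences of 3.01 to 3.35. Os06t0514100-01 had 386, 426.5 and 404 in OsglHAT1-OE, against 38.4, 37.4 and 40.8 in GW6a-4.6 and 315 and 319 in Nipponbare. It was 10.4-fold higher, and GW6a-4.6 was the line that stood apart from Nipponbare (adjusted p = 1.35e-27 by limma). The 6 loci had nearly equal values and may be copies that share reads. The run lies on the same chromosome as the GW6a gene but outside the 30 loci on either side of it.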

How the data were processed

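The deposited table gives 1 signal value per transcript model and library, and per the labels' processing notes Bowtie, edgeR and the rice build IRGSP 1.0 were used, with no versions or roles given. Every deposited signal value was a whole multiple of its column's step within 0.01, so alignments and library totals were recovered from it. Of the 43481 models, the one with the highest mean was kept for each of 36819 loci, values were divided by median-ratio factors (1.01, 1.01 and 0.865 for OsglHAT1-OE and 1.06, 1.05 and 1.06 for GW6a-4.6), and loci with a value of at least 1 in at least 2 of 6 libraries were fitted with limma 3.58.1 (trend, R 4.3.3) on log2 of the value plus 1. P-values were adjusted by Benjamini-Hochberg over 30901 loci at 0.05. The steps were first tested on simulated data. Alternatives included edgeR 4.0.16 and DESeq2 1.42.0 on the recovered counts.

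The comparison, the gene families and the lists were chosen with earlier results of these data known, and the pattern for loci with informative annotation was amended after names were seen. Named loci are the GW6a gene, the 10 largest rises and falls, up to 3 in each direction per family by smallest adjusted p, and the 5 of highest mean value with a log2 difference of at least 1. The members of chromosome clusters and of the HAT family set were chosen after their values were seen. Counting intervals are exact binomial and cover counting error only.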

Additional observations from a re-analysis of the deposited data

How the results depend on the processing

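The GW6a gene stayed called lower in the libraries labelled OsglHAT1-OE under all 17 alternatives. Without rescaling 2366 loci were called higher. After quantile normalization 555 loci were called higher with a log2 difference of at least 1. With a pseudocount of 5 the number called with a log2 difference of at least 1 in either direction was 988, of which 111 were higher and 877 lower, since a larger pseudocount shrinks the differences of low loci by construction. Leaving out each library in turn gave 9693 to 11290 called loci, of which 4648 to 5569 were higher and 5045 to 5721 lower. DESeq2 on the recovered counts called 9825 loci and edgeR 11643. The samples of both lines carry replicate numbers, and same-numbered libraries had correlations of deviations of 0.0469, -0.000221 and -0.00483. Differently numbered pairs ran from -0.0434 to 0.0412. No pairing was given, and such correlations over all loci cannot settle whether same-numbered libraries share more than a number. With a replicate block 12124 loci were called. Of 1700 values of the named loci under the alternatives, 1693 kept their direction and call, 7 lost the call and 0 changed direction. Named loci were mostly picked from these same data by adjusted p, difference or value, so their stability was largely set by that choice. Of all 11667 calls, 8322 were shared without rescaling and 11648 with a replicate block, the fewest and the most. After quantile normalization 9578 were shared, 4 of them with the other sign. Without replicate 3 of OsglHAT1-OE 9388 were shared. For the 7 lost calls of named loci the cause was not tested. At these depths loci with only a few reads per library were mostly left untested, and 5918 loci in all were not tested.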
